A study of Danio rerio with 6 samples.

Results

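Intron retention was followed at 866 introns of the adult zebrafish liver, each listed in a retained and a spliced form in all 6 libraries of the series. They were chosen by matching every intron retention event of the 6 deposited event lists by chromosome, start, end and strand. In all, 2277 such events were listed in at least 1 library, and 866 of them were listed in all 6. The comparison was of 3 libraries of capn3b-/- mutant fish with 3 libraries of the wild type AB laboratory strain, all from dissected livers of adult fish. The gene capn3b encodes a zebrafish form of calpain 3, which is a protease that needs calcium. The labels name no agent, sex or age beyond adult, and do not say whether each library is from its own fish. P-values therefore measure the spread between these libraries, which may be technical.

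Introns are cut from a primary transcript by the spliceosome, and an intron that stays in a finished or stalled transcript is called retained. A retained intron often brings a stop codon, so that the transcript is destroyed by nonsense-mediated decay, or it holds the transcript in the nucleus until the intron is removed. In mammals, genes for RNA-binding proteins and splicing factors are known for long introns kept in this way, through which some of these proteins limit their own output. Percent retention, the quantity used here, was the FPKM of the retained form over the FPKM of both forms. FPKM is the number of fragments scaled to transcript length and library depth.

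Of the 866 introns, 788 lay within 1 gene of the deposited gene table on the same strand, and these belonged to 694 genes. Of the 788, 753 lay in protein-coding genes, 32 in processed transcripts and 2 in lincRNA genes. The other events lay in the span of several genes (13) or of none (65). Both forms were listed at 0 FPKM in every library for 113 of the 866. A sum of both forms of 1 FPKM or more in each library was reached by 467 events, which entered the test. Of the 399 others, 282 stayed under 1 FPKM in every library and 117 reached it in at least 1 library. Just inside the limit, the event in ttll1 had a lowest summed level of 1.01 FPKM, and just outside, that in kdm6ba had 0.962 FPKM.

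Most introns that entered the test were never seen in between. For 217 of the 467 events percent retention was 0 in every library, and for 59 it was 100 in every library. The remaining 191 varied between libraries, with a median retention of 40.9%. Of these 191, 64 had a mean retention under 20%, 81 lay between 20% and 80%, and 46 lay above 80%. Even so, 91 of the 191 were listed at 0% in at least 1 library and 72 at 100% in at least 1 library, and 36 stayed strictly between 0% and 100% in all 6. The 191 introns fell in 173 host genes for those with 1 host gene, 14 of which held several, and prpf39, hnrnpm and emc1 held 3 each. Of the 191, 18 shared their retained-form level in every library with another event, since the same transcript can keep or lack several listed introns, so events of a gene are not independent.

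Most of the events with the highest summed level were listed as spliced in every library. Among the 10 events with the highest summed level, 9 had 0% retention in all 6 libraries. These were in fgg, which encodes a chain of fibrinogen, in the ribosomal protein genes rpl19, rps27a, rpl7a, rpl9, rps3a and rpl10a, in ppdpfa and in zgc:123103. The fgg event (chromosome 1, 24983762 to 24983879) had a mean summed level of 5280.4 FPKM. The same held for the events in the coagulation genes f2 (prothrombin) and proca (protein C) and for that in cfhl4, a gene of the complement factor H family. Thus all 4 tested events in the complement and coagulation lists were listed as fully spliced.

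The exception among the 10 was fads2, which encodes a fatty acid desaturase. Its 59-base intron (chromosome 25, 4018191 to 4018249, minus strand) was retained at 78.8%, 78.4% and 77.8% in the mutant libraries. In the wild type libraries retention was 75.5%, 79.7% and 75.8%. The groups overlapped, and the difference of 1.33 percentage points had a 95% interval of -13.4 to 16.0, although the mean summed level was 2070.6 FPKM. Here the gene level ran from 735 to 1799.6 FPKM in the mutant and from 1807 to 2221 FPKM in the wild type (adjusted p = 0.167, limma).

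Intron length went with the share of events that had a mean retention over 50%. The median length of the 866 introns was 91.5 bases, with quartiles at 75 and 147 bases and extremes of 5 and 3995 bases. Of the 20 tested events under 30 bases, 14 had a mean retention over 50%, as did 30 of 41 events of 30 to 69 bases. The share was 41 of 198 for 70 to 99 bases, 42 of 155 for 100 to under 300 bases and 18 of 53 for 300 bases or more. From the shortest class to the longest, 13 of 20, 17 of 41, 72 of 198, 54 of 155 and 35 of 53 events varied between libraries. The shares were thus higher in the shortest and the longest class than in those between. These are descriptions of the listed events, with no test.

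**Figure D1:**
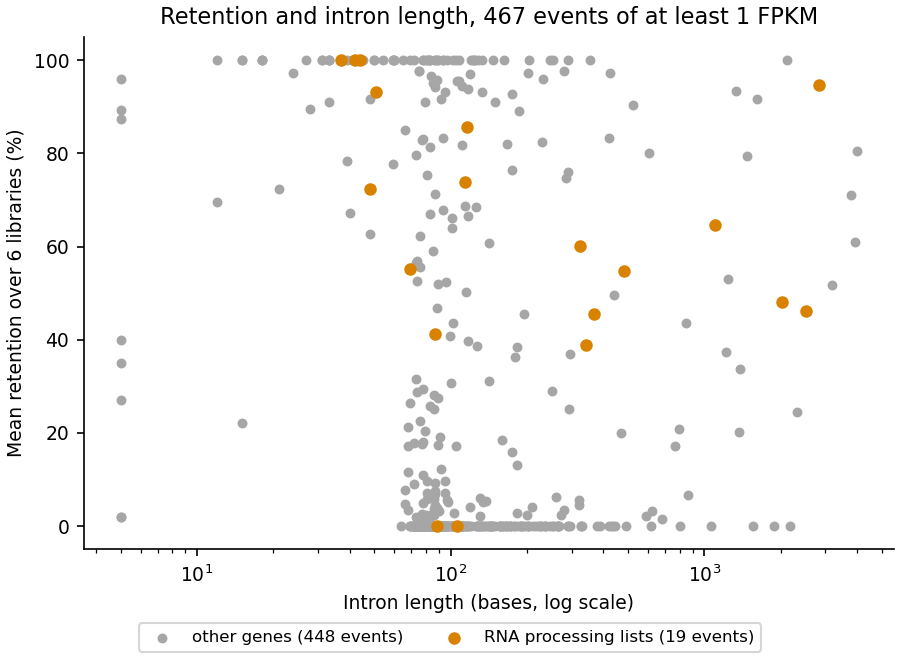
Mean percent retention over the 6 libraries (vertical axis) against intron length in bases (horizontal axis, log scale) for the 467 events that entered the test, 1 point per event, with events in genes of the RNA processing lists in orange. Events under 70 bases lie mostly above 50% and most events of 70 to under 300 bases lie at 0%.

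Some events were shorter than introns that the spliceosome is known to remove. There were 63 events under 30 bases among the 866, 18 of them of 5 bases and 17 of 15 bases. Of the 63, 39 had a length divisible by 3. Among the 803 longer members 379 (47.2%) had such a length, against 524 of 1397 (37.5%) among the longer events not listed in all 6 libraries. Within the test, over introns of every length, the share was 35.9% among the events always at 0%. It was 45.0% among the varying events and 57.6% among the events always at 100%. Events under 30 bases numbered 0, 13 and 7 in these sets, in the same order. A length divisible by 3 keeps the reading frame when the intron stays in a coding sequence.

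Of the 18 events of 5 bases, 8 entered the test, and 3 of these are given by library, chosen after their values were seen. In gata6, a transcription factor gene, retention was 44.0%, 36.8% and 0% in the mutant and 56.9%, 43.5% and 29.1% in the wild type, and the groups overlapped. In jak2b, a cytokine receptor kinase gene, it was 0%, 100% and 100% in the mutant and 0%, 0% and 39.6% in the wild type. A gene of the calpain family, CAPN1, held a 5-base event at 100% in each mutant library. In its wild type libraries retention was 100%, 49.5% and 74.8%, so the groups met at 100%. The pattern was not particular to CAPN1. Tested 5-base events in fat1a and slc20a2 were also at 100% in each mutant library, with wild type means of 78.6% and 91.7%. The gene name CAPN1 comes from the span of the deposited table, since the event list gave none.

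Retention as a whole did not separate the genotypes. Mean retention over the 467 events was 31.2%, 31.7% and 31.0% in the mutant and 31.3%, 29.8% and 31.3% in wild type fish. The group means were 31.3% ± 0.379 and 30.8% ± 0.857 (SD, n = 3 each), a difference of 0.477 percentage points (exact permutation test, two-sided, p = 0.6). The sign of this difference rested on wild type replicate 2, the lowest library: without it the difference was -0.0176. Of the 191 varying events, 97 had the higher mean in the mutant and 94 the lower, with a median difference of 0.25 percentage points.

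The number of events listed per library was higher in the mutant, at the smallest p the design allows. The mutant libraries listed 1239, 1216 and 1252 events and the wild type libraries 1210, 1172 and 1204, so that the groups did not overlap. The means were 1236 ± 18.2 and 1195 ± 20.4 (SD, n = 3 each; exact permutation test, two-sided, p = 0.1, the smallest p that 3 against 3 allows). Counting events of at least 1 FPKM in that library gave 829, 805 and 846 against 774, 745 and 801. Relative depth, read from the steps of the gene table, was 1.06, 1.06 and 1.1 times that of wild type replicate 3 in the mutant libraries. It was 1.16 and 1.02 times that depth in wild type replicates 1 and 2. Each mutant library was thus deeper than wild type replicates 2 and 3 and less deep than wild type replicate 1. The part of depth in the number of events listed was not tested. Of the events listed in 1 genotype alone, 6 were in all 3 mutant libraries and 5 in all 3 wild type libraries.

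No single intron passed the test for percent retention. Of the 467 events 0 had an adjusted p under 0.05 (percent called 0; limma, Benjamini-Hochberg over 467 events), and the smallest adjusted p was 0.717. At an unadjusted p under 0.05 there were 8 events, 5 higher and 3 lower in the mutant. On the log2 ratio of the forms, with 0.5 FPKM added, 2 events passed, in fam20b and cahz, both with a constant percent and a changed gene level. The groups did not overlap in 15 of the 467 events (3.21%), with the mutant higher in 9 and lower in 6. In exon skipping, the event type most like this one, 0 of 1608 tested events passed (percent called 0; 50 at an unadjusted p under 0.05), and the groups of 79, or 4.91%, did not overlap. Constant events can never separate, so the 15 came from 191 varying introns and the 79 from 919 varying skipping events. The 2 percentages are therefore not directly comparable. Precision set a wide limit: the median half-width of the 95% interval over the 191 varying events was 22.8 percentage points.

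The spread between libraries was smaller for abundant transcripts. The median standard deviation within a group was 15.8 percentage points for the 42 varying events with a mean summed level under 3 FPKM. It was 11.7 for the 87 events of 3 to 10 FPKM, 12 for the 43 events of 10 to 30 FPKM and 6.37 for the 19 events above 30 FPKM. Median absolute differences between the genotype means were 10.1, 9.18, 8.25 and 4.53 percentage points in these classes. These are differences of means of 3 libraries, so their size cannot be set directly against the spread of single libraries.

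**Figure D2:**
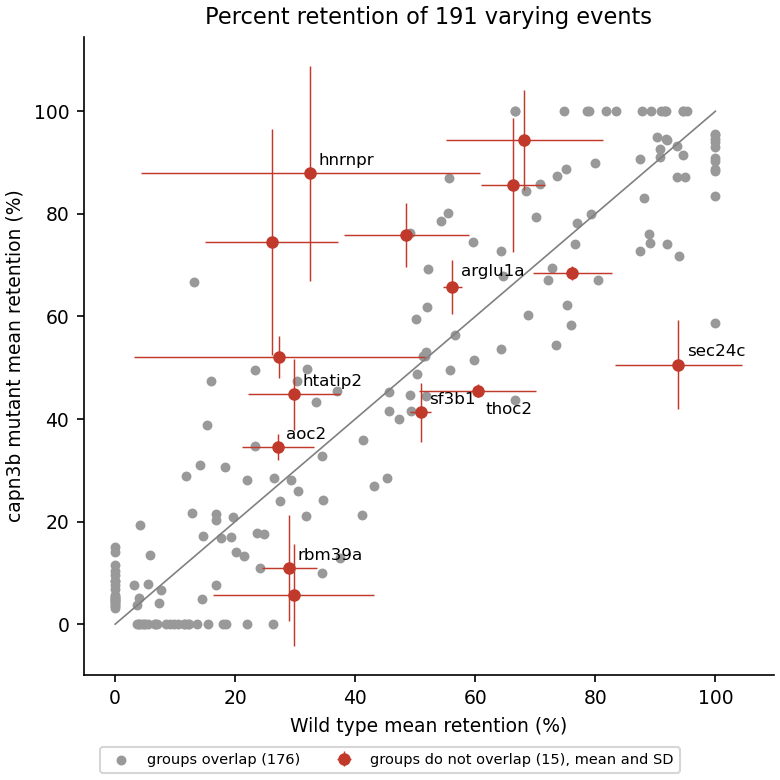
Mean percent retention in the capn3b mutant (vertical axis) against wild type (horizontal axis), 1 point per varying event, n = 3 libraries a group; red points with SD bars are the 15 events whose groups did not overlap. Points lie on both sides of the line of equality, 97 above it and 94 below it.

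The event with the smallest p lay in sec24c, a cargo adaptor of the COPII coat that buds vesicles from the endoplasmic reticulum. It spans 21 bases (chromosome 12, 35466871 to 35466891, minus strand). Retention was 53.8%, 57.4% and 40.8% in the mutant and 81.6%, 100% and 100% in the wild type. Every mutant library was below every wild type library. The difference was -43.2 percentage points with a standard error of 8.59 and a 95% interval of -63.6 to -22.9 (limma, adjusted p = 0.717, range over the alternatives on the percent scale 0.290 to 1). This interval was not adjusted for the number of events tested or for the choice of the event by its p. The spliced form was at 4.29, 5.34 and 5.53 FPKM in the mutant against 1.54, 0 and 0 in the wild type, and the retained form overlapped, at 4.98, 7.18 and 3.80 against 6.79, 7.07 and 9.12 FPKM. Gene-level transcripts of sec24c were at 9.14 ± 1.6 and 7.18 ± 1.07 FPKM (SD, n = 3 each; adjusted p = 0.281, limma).

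Of the 10 events with the largest differences among those without overlap and with at least 5 FPKM in every library, 2 lay in genes of the RNA processing lists, sf3b1 and hnrnpabb. Without the limit on level, the groups did not overlap in 3 of the 14 varying events in those lists and in 12 of the 177 others. The event in rbm39a, a splicing regulator gene outside the lists, spans 471 bases (chromosome 11, 24104501 to 24104971). Retention was 0%, 12.5% and 20.5% in the mutant and 24.5%, 33.6% and 29.0% in the wild type. The mutant libraries were lower and spread more widely than the wild type ones. The difference was -18.0 percentage points with a 95% interval of -36.7 to 0.579. Its retained form was listed at 0, 2.70 and 4.78 FPKM in the mutant and at 5.73, 6.84 and 8.01 FPKM in the wild type.

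The event in sf3b1, a core subunit of the U2 particle that recognises the branch point, spans 2519 bases (chromosome 9, 32361370 to 32363888, minus strand). Retention was 40.01%, 36.3% and 47.6% in the mutant and 48.9%, 51.4% and 52.4% in the wild type, a narrow gap between groups. The difference was -9.58 percentage points (95% interval -25.3 to 6.19). Others of the 10 were in thoc2, a subunit of the THO complex that couples transcription to mRNA export, in arglu1a, a splicing modulator, and in hnrnpabb, an RNA-binding protein. For thoc2 (1240 bases; chromosome 14, 12167107 to 12168346) retention was 46.8%, 44.2% and 45.5% against 50.1%, 69.6% and 61.5%. The opposite order held for arglu1a (3914 bases; chromosome 9, 26279218 to 26283131), with 71.8%, 63.6% and 61.9% in the mutant against 56.4%, 54.5% and 57.8%. In hnrnpabb (48 bases; chromosome 21, 3018934 to 3018981) the values were 68.9%, 69.6% and 67.0% against 83.7%, 72.4% and 72.3%. The 95% interval of each of these differences included 0 (adjusted p of each = 1, limma). Over the 14 varying events in the RNA processing lists, 6 were higher in the mutant and 8 lower.

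The remaining events without overlap at this level were all higher in the mutant. In htatip2, an oxidoreductase gene, the 1219-base intron was at 39.0%, 52.4% and 43.0% against 38.6%, 25.1% and 25.7%. In aoc2, a copper amine oxidase gene, the 100-base intron was at 33.3%, 37.4% and 32.8% against 20.4%, 29.4% and 31.6%. An event of 291 bases on chromosome 10 (28543371 to 28543661), in a gene with a clone name only, had the highest summed level of the 10, 197 FPKM on average. It stood at 100%, 82.4% and 74.6% against 60.8%, 66.4% and 71.4%. That in zgc:110410 stood at 53.4%, 47.6% and 55.5% against 46.2%, 35.9% and 0%. None of the differences passed the test (adjusted p of each = 1, limma). The difference of each of the 10 kept its sign in every alternative on the percent scale that tested it. Because the 10 were chosen for groups without overlap, leaving out a library could not reverse a sign. The kept signs are therefore no support for the differences.

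**Figure D3:**
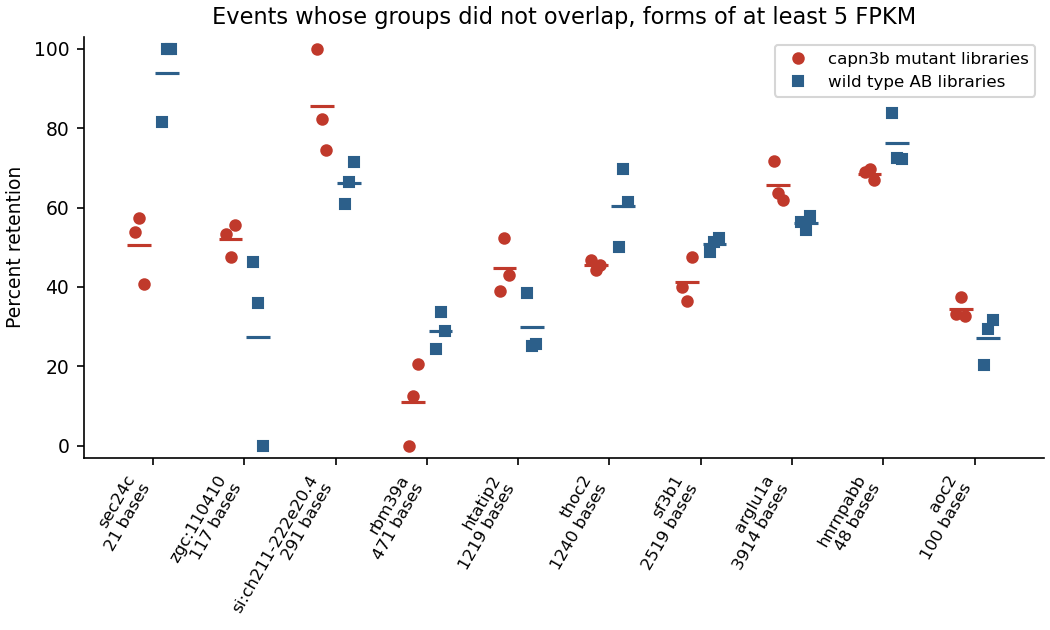
Percent retention in each library (points) with the group mean (line) for the 10 events whose groups did not overlap and whose summed level never fell under 5 FPKM, ordered by the size of the difference; red, 3 mutant libraries, blue, 3 wild type libraries. The gap is widest for sec24c, and retention is higher in the mutant in 5 of the 10.

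The other 5 events without overlap had under 5 FPKM in at least 1 library and were chosen after their values were seen. They lay in hnrnpr, si:dkey-5i3.5, si:ch211-260c23.1, pcmtd1 and ptgr2. The 324-base event in hnrnpr, an RNA-binding protein gene, had the widest difference of all 15, at 100%, 100% and 63.6% in the mutant against 51.5%, 0% and 46.1% (difference 55.3, standard error 16.6 percentage points; adjusted p = 1, range 0.603 to 1, limma). A 342-base hnrnpr event that shares its lower coordinate overlapped between groups, at 66.2%, 34.5% and 41.6% against 49.0%, 0% and 41.9%. Close to these was ccnl1a, which encodes cyclin L, a partner of kinases that act in splicing. Its 1474-base intron was at 100%, 35.7% and 40.3% in the mutant and at 100% in each wild type library, so that the groups met at 100%.

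Varying introns in genes of the 5 RNA processing lists had a greater median length and a higher median retention than the others. Of the 191 varying events 14 lay in 9 genes of the SR protein, hnRNP, splicing kinase, spliceosome and nonsense-mediated decay lists, and 8 of the 14 introns (57.1%) had at least 300 bases. Among the other 177 varying events, 27 (15.3%) were that long. Median lengths were 333 and 92 bases, and median retention was 57.7% and 36.9%. The others include RNA-processing genes outside the lists, such as ddx5, rbm39a, arglu1a, thoc2 and nxf1, so the contrast is one of list membership. Events that did not vary are left out on both sides. Those tested in the lists were all short, at 42 (srsf2a), 88 (srsf9), 44 (hnrnpl2), 37 (ddx39aa) and 106 bases (acin1a). The contrast in length was computed for varying events only. The 14 events are not independent, since prpf39 and hnrnpm held 3 each. This is a description of listed events, with no test.

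The SR protein gene srsf5a, a splicing activator, held the most abundant of these. Its 1102-base intron (chromosome 13, 36406748 to 36407849, minus strand) was retained at 61.5%, 60.9% and 58.3% in the mutant and at 77.3%, 59.1% and 70.01% in the wild type. Wild type replicate 2 lay among the mutant libraries, so the groups overlapped, and the difference of -8.57 percentage points had a 95% interval of -26.0 to 8.85. In srsf4, another SR protein gene, the 2026-base intron was at 49.0%, 40.8% and 43.7% against 57.7%, 54.7% and 42.9%. The 2830-base event of clk2a, a kinase that phosphorylates SR proteins, was at 100% in all libraries except wild type replicate 2, where it was at 67.8%.

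In prpf39, a factor of the U1 particle that marks the start of an intron, 3 varying events were tested. Retention of the 482-base intron (chromosome 20, 54495333 to 54495814) was 60.5%, 53.8% and 64.0% in the mutant and 41.4%, 58.7% and 50.4% in the wild type. A 367-base intron of the gene was at 34.7%, 26.0% and 64.0% against 40.8%, 50.1% and 57.1%, and the groups overlapped for both. At the gene level prpf39 was higher in the mutant, at 47.0, 52.3 and 43.7 FPKM against 33.0, 30.6 and 31.1 FPKM (log2 fold change 0.58, standard error 0.13, adjusted p = 0.0332, range 0.0241 to 0.105, limma), and the call was lost in 6 of 11 alternatives.

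Of the 45 tested introns of at least 300 bases outside those lists, 16 were at 0% and 2 at 100% in every library. The other 27 varied, 7 of them with a mean under 20%, 13 between 20% and 80% and 7 above 80%. At the extremes of mean retention, oplah was retained in mutant replicate 1 alone, at 9.73%, and spty2d1 fell below 100% in wild type replicate 1 alone, to 83.7%. The introns given next were chosen after their values were seen. In ddx5, an RNA helicase gene, the 848-base intron had a mean summed level of 165 FPKM, the highest among the varying introns of at least 300 bases, and retention of 44.3%, 48.6% and 31.8% against 52.3%, 32.0% and 52.6%. In ogt.1, which encodes the transferase that adds O-GlcNAc to proteins, the 3192-base intron was at 54.7%, 53.2% and 49.0% against 51.5%, 55.0% and 47.5%. The group means of ogt.1 were 52.3% ± 2.95 and 51.3% ± 3.75 (SD, n = 3 each). In its neighbour copy ogt.2 a 3771-base intron was at 62.3%, 64.6% and 81.4% against 77.7%, 63.8% and 77.0%. Reads of such close copies may not be separable.

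In 3 further long introns the groups overlapped as well. In trnau1apb, a gene for a factor of selenocysteine incorporation, retention was 42.8%, 46.7% and 56.8% against 48.7%, 52.7% and 49.3%. In tardbpl, a gene of the TDP-43 family of RNA-binding proteins, it was 14.8%, 19.5% and 19.1% against 18.0%, 19.7% and 33.4%. The 1365-base intron of max, which encodes the partner of Myc, was at 20.6%, 20.6% and 21.2% in the mutant and 13.4%, 17.7% and 27.6% in the wild type. The longest intron of all, 3995 bases in the mRNA export factor gene nxf1, was at 100%, 100% and 62.0% against 100%, 54.0% and 66.6%.

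**Figure D4:**
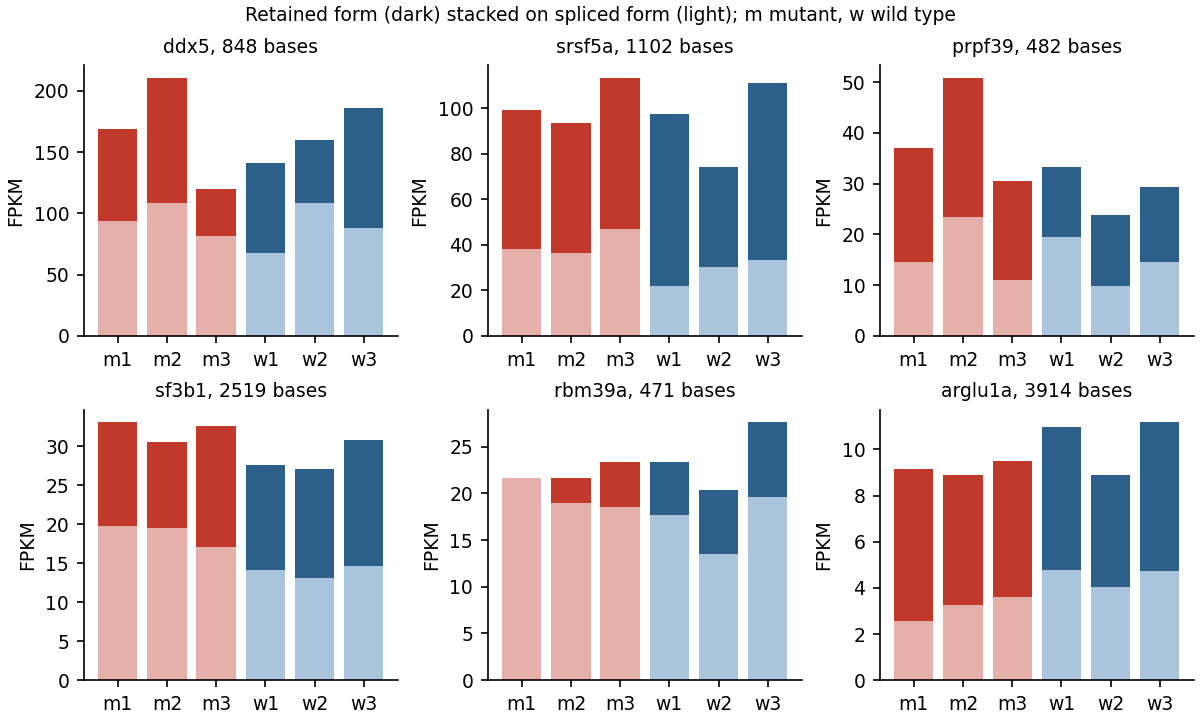
Stacked bars of the FPKM of the retained form (dark) on that of the spliced form (light) in each of the 6 libraries for 6 long introns; m1 to m3, mutant, red, w1 to w3, wild type, blue, vertical axes from 0. Both forms are present in every library except for rbm39a in mutant replicate 1, where the retained form is listed at 0.

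Few genes of the RNA processing lists passed the test. Of 115 tested genes in the 5 RNA processing lists, 1 was higher in the mutant (prpf39) and 0 lower. Over all genes 1268 of 11164 passed (11.4% called; 5.91% higher, 5.45% lower; limma on log2(FPKM + 1)). The median log2 change was 0.15 over the 115 genes and 0.05 over all genes tested. By list, 0 of 18 SR protein, 0 of 19 hnRNP, 0 of 7 splicing kinase, 1 of 59 spliceosome and 0 of 12 nonsense-mediated decay genes passed. The count of 1 moved to 8 without wild type replicate 3 and to 0 without mutant replicate 1 or 2 or without wild type replicate 1 or 2.

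Host genes of the tested introns changed in both directions. Of 411 host genes tested at the gene level, 31 passed, 12 higher and 19 lower in the mutant, or 7.54%, beside 11.4% of all genes. Among the 171 hosts of varying introns 10 passed, 6 higher and 4 lower. The retained and the spliced form were also tested singly, an addition made after no percent had passed.

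For the retained form, 2 of 211 events passed, both lower in the mutant (0.948% called; limma on log2(FPKM + 1)). That in SLC16A6 reached 1 FPKM in wild type libraries alone, so it entered the test only where it was high and its p is not given. In fam20b, which encodes a xylose kinase of proteoglycan synthesis, the retained form of a 246-base intron (chromosome 20, 16012395 to 16012640, minus strand) was at 4.64, 6.47 and 4.19 FPKM in the mutant. In the wild type it was at 28.4, 31.8 and 21.4 FPKM, far above every mutant library. On the log2 scale the difference was -2.21, its standard error 0.22 and its adjusted p 0.00869 (limma). The spliced form was listed at 0 in all 6 libraries, so percent retention was 100 throughout, and the gene itself was lower too, with a log2 fold change of -2.11. The call was lost without mutant replicate 3 or without wild type replicate 2 (highest adjusted p 0.0540, limma).

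The second was a 544-base intron in SLC16A6, a monocarboxylate transporter gene (chromosome 12, 20459490 to 20460033, minus strand), named from the span of the deposited table. Its retained form was listed at 0 in each mutant library and at 2.56, 2.92 and 3.28 FPKM in the wild type. The gene itself was at 0.0916 ± 0.0462 FPKM in the mutant and 3.16 ± 1.26 FPKM in the wild type (SD, n = 3 each).

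For the spliced form, 22 of 396 events passed, 10 higher and 12 lower in the mutant (5.56% called). Not all of these calls are independent: events of the vitellogenin genes shared their spliced level in every library, and xbp1 held more than 1 call. Of the 22, 3 reached 1 FPKM in libraries of 1 genotype alone (ero1a, eif2ak2 and si:ch211-260c23.1), so they entered the test only where they were high, and their p is not given. Of the other 19 calls, 8 were higher and 11 lower in the mutant. The host gene passed in 15 of the 17 of these with 1 tested host, and did not in sec24c and mapre1b. In the wild type, the sec24c form reached 1 FPKM in replicate 1 alone. In 17 of the 22 the retained form was listed at 0 in every library. Leaving out single libraries moved the count of 22 to between 1 and 19, with 1 without mutant replicate 2, 10 without mutant replicate 1 and 4 each without wild type replicates 2 and 3. Each of the other 19 calls was lost in at least 1 of 8 alternatives.

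The gene ero1a encodes an oxidase that drives disulfide bond formation in the endoplasmic reticulum. The form without its 5-base event (chromosome 17, 15011802 to 15011806, minus strand) was at 5.16, 5.26 and 5.37 FPKM in the mutant and at 0, 0.0174 and 0.320 FPKM in the wild type. The groups did not overlap, which is a description of a form that entered the test only through the mutant libraries. Its percent retention was 0%, 25.3% and 33.3% in the mutant and 100%, 87.7% and 58.6% in the wild type, but it stayed outside the percent test because the wild type forms summed to under 1 FPKM. Gene-level transcripts were at 5.64 ± 1.33 and 0.355 ± 0.277 FPKM (SD, n = 3 each), also at 1 FPKM or more in mutant libraries alone.

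The spliced forms of xbp1, a transcription factor gene of the unfolded protein response, were higher in the mutant. So was the gene itself, with a log2 fold change of 1.29. Its 146-base event (chromosome 5, 15446328 to 15446473, minus strand) had no retained form in any library, and the spliced form was at 320.5, 305 and 207 FPKM against 118, 105 and 115 FPKM. On the log2 scale the difference was 1.27, its standard error 0.19 and its adjusted p 0.0169 (limma). A 5-base event in the same gene was listed as retained in wild type replicate 3 alone, at 12%. The messenger of this gene is known to lose a short intron outside the nucleus through the enzyme IRE1, and neither event was matched to that intron here.

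Of the other calls, 6 are given here, chosen after their values were seen. The spliced form in glula, which encodes glutamine synthetase, was at 4.21, 10.1 and 12.1 FPKM in the mutant and at 47.2, 104 and 79.8 FPKM in the wild type (log2 fold change -3.02, standard error 0.43, adjusted p = 0.0166, limma). Also lower were those of fbp1b (fructose bisphosphatase), tdo2a (tryptophan dioxygenase) and mpc2 (a mitochondrial pyruvate carrier subunit), which fell by 1.24, 1.07 and 0.98 on the log2 scale. The sterol transfer protein gene stard4 and the prostaglandin reductase gene ptgr1 were higher, by 1.61 and 1.33. The change of the host gene was -3.01 for glula, -1.26 for fbp1b, -1.03 for tdo2a, -0.99 for mpc2, 0.99 for stard4 and 1.28 for ptgr1. In all 6 the retained form was listed at 0 in every library, so percent retention stayed at 0. The calls of glula, fbp1b, tdo2a, mpc2, stard4 and ptgr1 were lost in 3, 5, 5, 4, 5 and 6 of 8 alternatives.

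**Figure D5:**
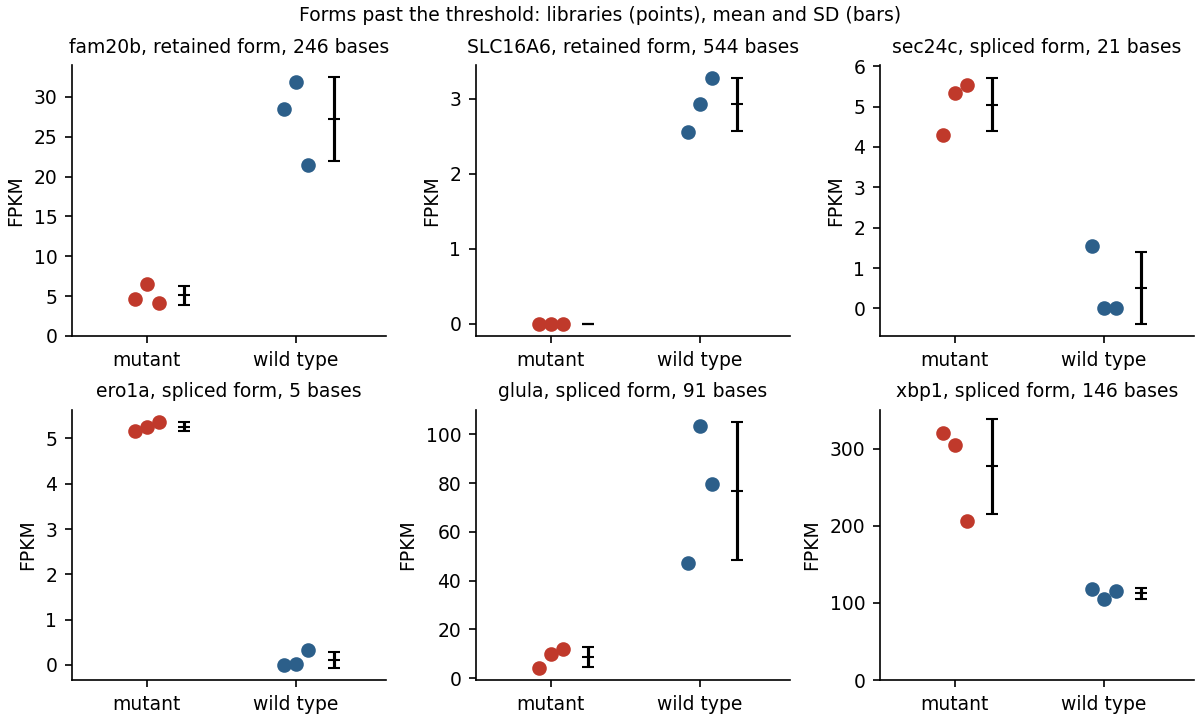
FPKM of the named form in each library (points, n = 3 a group) with mean and SD (bars) for 6 events whose form level passed the threshold; red, mutant, blue, wild type. The 6 were chosen among forms past the threshold, so groups without overlap in every panel follow from the choice. SLC16A6 and ero1a reached 1 FPKM in 1 genotype alone, and sec24c reached it in only 1 wild type library.

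The forms of cyba, a subunit of the phagocyte oxidase, and of cahz, a carbonic anhydrase of red cells, differed as the markers of blood cells did, and both genes are themselves in those marker lists. The spliced form in cyba was at 15.5, 31.2 and 25.4 FPKM against 5.04, 5.37 and 8.74, and that in cahz at 6.46, 7.81 and 8.51 against 22.2, 21.9 and 19.9 FPKM. Of 5 neutrophil markers 4 were higher at the gene level, their summed level running from 22.6 to 57.3 FPKM in the mutant and from 6.47 to 11.4 in the wild type. Of 6 macrophage markers 4 were higher, summed at 48.1 to 70.5 against 17.5 to 29.8 FPKM. Of 4 tested erythrocyte markers 3 were lower, summed at 175 to 195 against 321 to 388 FPKM. Over all genes tested, 5.91% were higher and 5.45% lower in the mutant. A gene needed 1 FPKM in only 3 libraries, so a marker low in 1 genotype could enter through the other alone. The marker counts are therefore given as description. In whole tissue, fewer cells of a type and less RNA per cell cannot be told apart, and the part of these cells in any percent was not tested.

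Markers of the labelled tissue were abundant in every library. The 7 hepatocyte markers in the table summed to 109299 to 120800.3 FPKM in the mutant and 111075 to 122167 FPKM in the wild type, and 1 of them, ahsg2, was lower in the mutant. Exocrine pancreas markers ran from 90.5 to 383 FPKM in the mutant and from 97.9 to 716 in the wild type, with 0 of 6 past the threshold, and no tested event lay in one of those genes. Markers of bile duct, endothelium and stellate cells had 0 of 9 genes past the threshold.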

How the data were processed

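RNA from dissected adult livers was sequenced as Illumina libraries, per the labels' protocols. The authors deposited, per library, a list of splicing events with FPKM values, and a gene table of FPKM values for the series. Per the submitters' processing notes the build was GRCz11 and DESeq2 was among the tools. The sources used here do not name the aligner, the tool behind the event lists or the annotation release; per the file headers and columns, transcript loci carry CUFF identifiers.

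An intron was taken as the bases between the listed event start and end, and rows of a library sharing coordinates and form were summed. Event FPKM are estimates for transcripts, so a form at 0 is a listed 0 and fragments per event are unknown. In the gene table the step of 1 read was visible at low levels, and the commonest ratio of these steps between libraries gave relative depth.

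Percent retention was tested with limma 3.58.1 in R 4.3.3 (no trend, two-sided, Benjamini-Hochberg, threshold 0.05) over events of at least 1 FPKM in every library. Events whose SD was at most 1e-06 percent could not be fitted and took a p-value of 1 in the adjustment. Groups were called apart where they were separated by over 1e-06 percent. Gene and form levels were tested with limma on log2(FPKM + 1), which understates the change of low genes, with a trend, for at least 1 FPKM in at least 3 libraries. Python 3.11.15 with pandas 2.3.3, numpy 2.4.6, scipy 1.17.1 and matplotlib 3.10.9 did the rest. The fits were tested on simulated data. The simulated percents had no bounds, so these runs do not cover events at either end of the percent scale.

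Named events were those past the threshold, the 10 largest differences without overlap at 5 FPKM or more, the 5 highest and 5 lowest varying events at that level, the 10 most abundant, and up to 6 events of each gene list. Events and lists were chosen with earlier results of these data known. Alternatives were other filters and pseudocounts, the log2 ratio of forms, robust moderation, quantile normalization, the highest row, varying events alone, the replicate number as a block, and each library left out. The form tests, their alternatives, introns under 30 bases left out and 1 value a host gene were added after the data were seen.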

Additional observations from a re-analysis of the deposited data

How the results depend on the processing

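The count of introns past the threshold in percent retention was 0 under each alternative on the percent scale and on the log2 ratio with 0.1 FPKM added, and 2 on the log2 ratio with 0.5 FPKM added. On that scale an intron with no retained form moves with its gene, by construction. The difference in mean retention was -0.816 when the median over varying events was used, and without single libraries it ran from -0.0176 to 0.726. The difference in events listed ran from 28.7 to 50.2 without single libraries.

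Retained forms past the threshold numbered 1 with a pseudocount of 0.1, 1 with the replicate block, and 0 to 2 without single libraries (0 once mutant replicate 3, or wild type replicate 2, was left out). Spliced forms numbered 12 with the block and 1 to 19 without single libraries. Genes past the threshold numbered 592 with no expression filter and 414 to 1134 without single libraries (414 without wild type replicate 2, 516 and 536 without mutant replicates 1 and 2, 801 without wild type replicate 1). Genes of the RNA processing lists numbered 2 with a filter of 5 FPKM, 2 with quantile normalization, 0 with the block and 0 to 8 without single libraries. For these the cause was not tested.

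The replicate numbers share no stated animal or day. Correlations of deviations between same-numbered libraries were -0.0541, -0.142 and 0.0661 in percent retention and -0.0448, -0.00964 and -0.0833 at the gene level. The block gave 950 genes, and 0 introns and 0 skipped exons in percent. Depth behind an event is unknown, and the wide intervals limit what a percent can show.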

Other observations

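Among the events with the lowest and highest varying retention at 5 FPKM or more, each owed its variation to 1 library. The 5-base event of xbp1 was retained in wild type replicate 3 alone. The events of rrbp1a, lamtor3, ABHD12B and si:dkey-23i12.5 were retained in 1 mutant library each, at 11.5%, 12.4%, 14.2% and 14.8%. At the other end, ptp4a2b, jupa, fam63a and ppp4r2b fell below 100% in 1 mutant library each, to 86.5%, 86.0%, 81.8% and 79.1%, and ddx54 in wild type replicate 2, to 83.7%.

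Outside the percent test, 4 events reached 1 FPKM in all mutant libraries and in no wild type library, in ehbp1l1b, eif2ak2, txnipb and ero1a, and 2 did so in the wild type, in SLC16A6 and eya4. The spliced form of eif2ak2, which encodes a kinase that senses double-stranded RNA, was at 1.6, 1.53 and 1.95 FPKM in the mutant and 0.290, 0.433 and 0 FPKM in the wild type. Its retained form was listed in wild type replicates 1 and 2 alone, at 0.534 and 0.276 FPKM. It entered the form test through the mutant libraries alone, so its p is not given.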
